A study of Homo sapiens with 8 samples.

Results

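The heat shock chaperone genes are 10 genes that encode proteins which bind unfolded or newly made proteins and help them to fold. They were taken as a fixed list of symbols, and all 10 were among the 25369 gene symbols of the RNA-seq table and were listed above 0 in each of the 8 libraries. The cells were MCF10A, a spontaneously immortalized, non-malignant human mammary epithelial cell line, harvested after 7 days inside 4 kinds of hydrogel with 2 libraries (replicates 1 and 2) per gel. Soft IPNs were interpenetrating networks of alginate and reconstituted basement membrane (rBM), and stiff IPNs held the same components with the alginate crosslinked by calcium. Soft col:rBM gels held collagen-1 with rBM, and stiff col gels are labelled as collagen-1 alone. Between the stiff gels, collagen-1, rBM, alginate and calcium therefore differ at once, and calcium and stiffness cannot be told apart between the 2 IPNs. The labels do not say how the replicates were grown, and the study's methods describe them as biological replicates from 2 independent trials. With 2 libraries per gel, p values measure only the spread between these libraries.

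As background, chaperones of the HSP70 family hold and release short unfolded stretches of a client protein in a cycle driven by ATP. J-domain proteins such as DNAJB1 bring clients to HSP70 and start the cycle, and HSPH1 of the HSP110 family exchanges the nucleotide to reset it. HSP90 proteins act later on near-native clients, many of them kinases and receptors, while the small protein HSPB1 keeps unfolding proteins from aggregating. Heat and other protein damage release the transcription factor HSF1, which binds heat shock elements in the promoters of many of these genes. The list was labelled cytosolic, but HSPD1 (HSP60) and its lid HSPE1 (HSP10) form the chaperonin of the mitochondrial matrix.

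The heat shock element is built from units of GAA and its reverse complement TTC, each followed by a spacer of 2 bases. The 250 bases before each RefSeq start (GRCh38.p14) were searched on both strands for 2 adjoining units, GAANNTTC or TTCNNGAA, each of which reads the same on the other strand. RefSeq promoters were found for all 10 genes, and a gene was counted when any of its starts held a match. By this count 8 of the 10 held one, against 1192 of 9791 tested genes with a promoter (12.2%). Counted by single promoter rather than by gene, 4067 of all 35116 held one (11.6%). HSP90AA1, HSP90AB1, DNAJB1 and HSPD1 also have starts without a match. A run of 3 units was found in 4 of the 10 genes and in 46 of the 9791 (0.470%). A match is a stretch of letters and not a site known to be bound. These matches are printed because 8 of the 10 members hold the same kind of stretch, written from 5′ to 3′ on the strand of the gene with the matched units in capitals and up to 10 bases on each side.
HSPA1A: gaaaaccctgGAATATTCccgacctggc
HSPA1B: gaaacccctgGAATATTCccgacctggc
HSPA8: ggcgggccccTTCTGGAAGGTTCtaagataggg
HSP90AA1: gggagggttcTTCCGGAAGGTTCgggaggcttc
HSP90AB1: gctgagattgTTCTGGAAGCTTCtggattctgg
HSPD1: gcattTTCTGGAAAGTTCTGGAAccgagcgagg
DNAJB1: gcgggctctgGAAGCTTCcgccggacgg
HSPB1: cttaacgagaGAAGGTTCcagatgaggg

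In GRCh38.p14, the HSPA1A stretch lies at chr6:31815427-31815454 and the HSPA1B stretch at chr6:31827623-31827650, both on the plus strand. Their promoters were identical at 235 of 249 aligned bases (94.4%), and the matched units began 106 and 105 bases before the start. The HSPA8 stretch at chr11:123062169-123062201 (minus strand) is the nearer of 2 runs of 3 units in that promoter. HSP90AA1 (chr14:102087110-102087142, minus strand) had a run of 3 units and a separate pair, and HSP90AB1 (chr6:44247821-44247853, plus strand) had 2 runs of 3 units. HSPD1 had the longest matched stretch, of 18 bases (chr2:197500058-197500090, minus strand). DNAJB1 (chr19:14518427-14518454, minus strand) had 2 pairs and HSPB1 (chr7:76302481-76302508, plus strand) had 1. HSPH1 and HSPE1 had no match in these 250 bases, which says only that these letters are not there.

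The values are normalized counts, that is read counts scaled by 1 factor per library. The factors were not given and were estimated here from how often each whole number occurs among the values. By this estimate the depth was 13065137 to 18589590 reads on genes per library. The study's methods state a larger depth, counted as reads left after filtering. By the same estimate 3 reads, taken as the limit of detection, correspond to 2.41 to 3.73 normalized counts. Every member lay far above that limit. All 10 epithelial markers were detected, with summed normalized counts of 78871 to 173740 per library. Of markers for other cell types, the summed immune markers ranged from 525 to 5179, mostly CD68 and lowest in stiff IPN replicate 2, while PTPRC, which defines immune cells, was listed at 0 in every library. CD14, also on the immune list, had 89 to 412 normalized counts. The summed fibroblast markers ranged from 774 to 1463, mostly DCN, with COL1A1 at 168 to 333, and COL1A2 was listed at 0 throughout. The summed endothelial markers, mostly KDR, ranged from 39 to 270, and the summed adipocyte markers from 18 to 123. The second stiff IPN library stood apart, with the lowest median correlation with the other libraries (0.946 against 0.956 to 0.969), and it was the highest library for 8 of the 10 members and the lowest for HSP90AB1. Calls between gels that use it are therefore followed by results without it, as are the members' calls between replicates. For other genes, calls between replicates are given with all libraries only. In bulk RNA, fewer cells expressing a gene and less RNA per cell cannot be told apart.

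Levels differed widely among the members. Per kilobase of annotated exon (GENCODE 44 lifted to hg19), the median over the 8 libraries was highest for HSP90AB1, at 8582 normalized counts per kilobase, and for HSPA8, at 7484. HSP90AA1 followed at 3626, HSPB1 at 2162 and HSPD1 at 1414 normalized counts per kilobase. DNAJB1 had 404, HSPE1 323, HSPA1A 254, HSPH1 237 and HSPA1B 198 normalized counts per kilobase. As counted, the constitutive HSP70 gene HSPA8 and both HSP90 genes were far above the stress-inducible HSP70 pair on this scale. The 2 genes of that pair are near-identical and reads that mapped to several places had been removed. Their values may therefore be too low and the size of this gap is uncertain, as is the place of HSPE1, which overlaps other annotated genes. For this scale the exon length is the union over all transcripts, so genes with long alternative exons are placed lower. The 10 genes together made up 0.450% of the normalized counts of a library at the lowest (soft col:rBM replicate 1) and 0.862% at the highest (stiff IPN replicate 2).

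Among the HSP70 genes, HSPA1A and HSPA1B encode the same stress-inducible protein, and in hg19 they lie at chr6:31783320-31785723 and chr6:31795515-31798031. HSPA1A had 574 and 620 normalized counts in the soft IPNs, 815 and 1238 in the stiff IPNs, 601 and 675 in the soft col:rBM gels and 357 and 601 in the stiff col gels, replicate 1 first in each case. HSPA1B had 485 and 520 in the soft IPNs, 651 and 930 in the stiff IPNs, 416 and 511 in the soft col:rBM gels and 308 and 488 in the stiff col gels. Both genes were highest in both stiff IPN libraries and lowest in the first stiff col library. The genes are near-identical and reads that mapped to several places had been removed, so each value counts only reads that could be placed and is uncertain. HSPA8 (chr11:122928197-122933938), the constitutive HSP70, had 27123 and 37683 in the soft IPNs, 37389 and 41019 in the stiff IPNs, 21995 and 36445 in the soft col:rBM gels and 25625 and 36133 in the stiff col gels. It was higher in replicate 2 than in replicate 1 in all 4 gels.

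**Figure D1:**
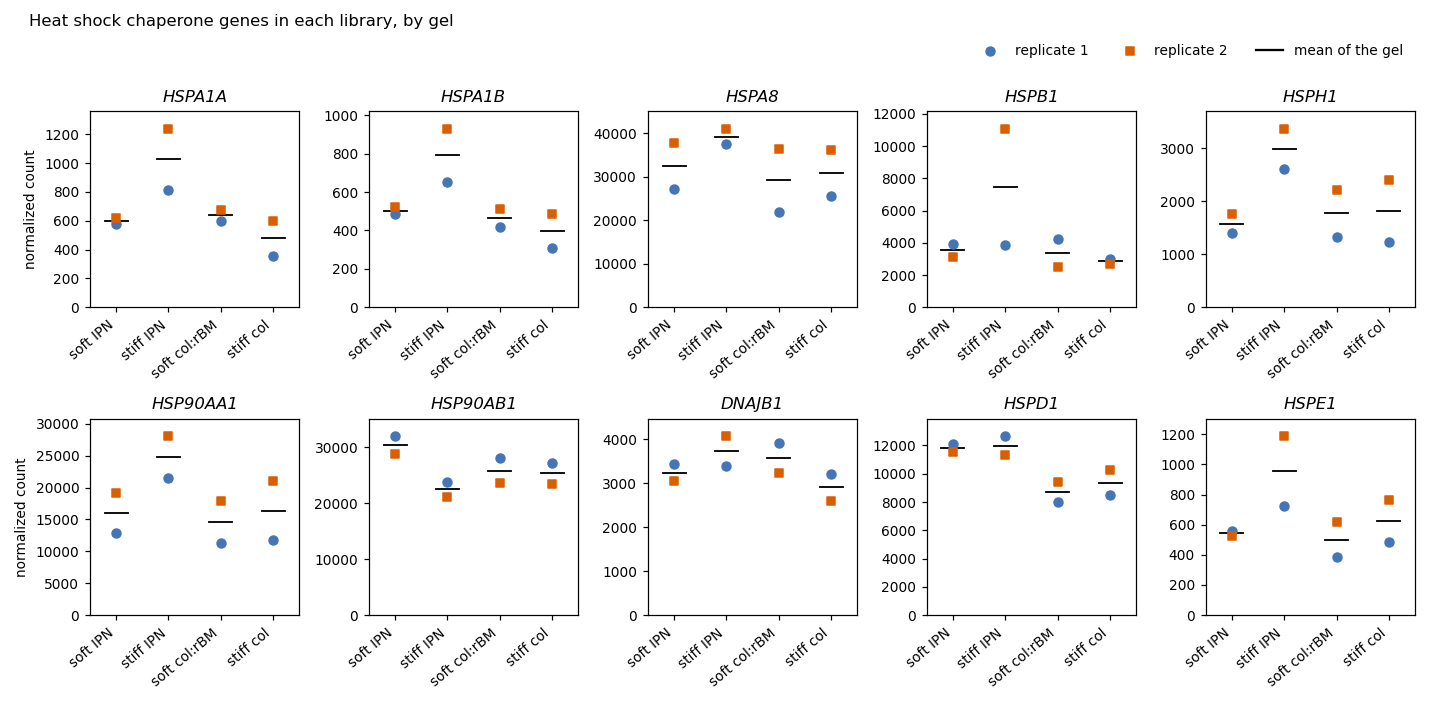
Normalized count (linear axis from 0, one scale per gene) of the 10 members in each gel, with circles for replicate 1, squares for replicate 2 and a line at the mean of the 2. The stiff IPN mean is the highest of the 4 gels for 9 genes and the lowest for HSP90AB1, and the replicates of a gel often lie far apart.

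HSPH1 (chr13:31709110-31736525), the HSP110 nucleotide exchange factor, had 1407 and 1756 normalized counts in the soft IPNs, 2619 and 3372 in the stiff IPNs, 1321 and 2223 in the soft col:rBM gels and 1235 and 2398 in the stiff col gels. Both stiff IPN libraries were above all 6 others. DNAJB1 (chr19:14625581-14671203), the J-domain partner of HSP70, had 3433 and 3051, 3395 and 4065, 3916 and 3224, and 3212 and 2595 in the same order of gels. Its gels overlapped except that both stiff col libraries were below both soft col:rBM libraries and below both stiff IPN libraries.

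Of the HSP90 genes, HSP90AA1 (chr14:102547079-102606036) encodes the inducible form. It had 12845 and 19137 normalized counts in the soft IPNs, 21507 and 28024 in the stiff IPNs, 11343 and 17826 in the soft col:rBM gels and 11783 and 21011 in the stiff col gels. Again both stiff IPN libraries were above all others, the first of them by a small margin over stiff col replicate 2. HSP90AB1 (chr6:44213903-44221625), the constitutive form, ran the other way, with 31959 and 28834 in the soft IPNs, 23891 and 21079 in the stiff IPNs, 28083 and 23624 in the soft col:rBM gels and 27258 and 23435 in the stiff col gels. Both soft IPN libraries were above all 6 others.

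HSPB1 (chr7:75931990-75933612), the small heat shock protein HSP27, had 3960 and 3125 normalized counts in the soft IPNs, 3892 and 11088 in the stiff IPNs, 4253 and 2525 in the soft col:rBM gels and 3023 and 2691 in the stiff col gels. Its high stiff IPN mean came from the second library alone, since the first lay between the soft IPN libraries. The mitochondrial pair is encoded side by side on chromosome 2, HSPD1 at chr2:198351308-198381461 and HSPE1 at chr2:198364864-198368173 on the other strand. HSPD1 had 12094 and 11527 in the soft IPNs, 12637 and 11291 in the stiff IPNs, 8006 and 9443 in the soft col:rBM gels and 8477 and 10280 in the stiff col gels, so that all 4 IPN libraries were above all 4 collagen libraries. HSPE1 had 561 and 526 in the soft IPNs, 725 and 1186 in the stiff IPNs, 386 and 615 in the soft col:rBM gels and 486 and 762 in the stiff col gels. HSPE1 overlaps the annotated readthrough gene HSPE1-MOB4, which was listed at 0 in every library, and HSPD1 overlaps HSPE1 on the other strand, so both values are uncertain. When the gels were ordered by mean, the neighbours whose libraries did not overlap were stiff IPN above the next gel for HSPA1A, HSPA1B, HSPH1 and HSP90AA1, soft IPN above soft col:rBM for HSP90AB1 and soft IPN above stiff col for HSPD1. Such gaps are frequent among all 13369 genes tested. Both stiff IPN libraries lay above both soft IPN libraries for 20.5% and above both stiff col libraries for 15.8%. Both soft IPN libraries lay above both soft col:rBM libraries for 10.4%. The share was not computed for the other pairs of gels, for 1 gel above all others or for IPNs above collagen gels.

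To examine the response to stiffness without collagen-1, stiff IPNs were compared with soft IPNs. Of the 10 members, 9 were higher in the stiff IPNs and HSP90AB1 was lower, with a median log2 fold change of 0.64 beside -0.01 over all 13369 genes tested. HSPH1 was higher by 0.92 ± 0.37 (log2, SE, n = 2 per gel), which is 1.89-fold. The stress-inducible HSPA1A and HSPA1B were 1.68-fold and 1.55-fold higher, HSP90AA1 1.57-fold and HSPE1 1.71-fold. For these 5 genes both stiff libraries were above both soft libraries, as they were for 20.5% of all genes tested. HSP90AB1 was at 0.739 of its soft IPN level with no overlap, as were 21.4% of all genes in that direction.

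None of these differences passed limma's test over all genes without a replicate block. In that fit 0 of 13369 genes (0%) were called in any of the 6 gel comparisons or across the 4 gels together, although 1245 genes had an unadjusted p under 0.05 between the IPNs. The 10 members had adjusted p values of 0.519 to 0.987 here, and 2 of them had an unadjusted p under 0.05. As planned, each comparison was also fitted with the replicate as a block, taking the replicate numbers to pair the libraries. Differences between replicates correlated least between the 2 IPNs (r = 0.278 over genes). With the block HSPH1 rose in stiff IPNs (limma, adjusted p = 0.0400, SE 0.18), 1 of 10 members where 1.69% of all genes were called higher. HSP90AA1 (adjusted p = 0.0621), HSPA1A (0.0677), HSPE1 (0.0821) and HSPA1B (0.0823) did not pass in limma with the block. The HSPH1 call was lost without soft IPN replicate 1 (adjusted p = 0.0820), without soft IPN replicate 2 (0.455) and with the variance moderated without a trend or robustness (0.109). Without soft IPN replicate 1, HSPE1 was called in its place (limma with the block, adjusted p = 0.0461). Rescaling the libraries to the same total gave 5 called members with the block, but it also moved the median of all genes by 0.26 (log2).

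Differences within each replicate show how much rests on the second stiff IPN library. HSPH1 was higher by 0.90 (log2) in replicate 1 and by 0.94 in replicate 2, and HSP90AA1 by 0.74 and 0.55. HSPA1A was higher by 0.51 and 0.997, HSPA1B by 0.42 and 0.84 and HSPE1 by 0.37 and 1.17. HSPB1 differed by -0.03 in replicate 1 and by 1.83 in replicate 2, so its 1.87-fold mean difference was carried by 1 library. HSP90AB1 was lower by a like amount in both (-0.42 and -0.45), DNAJB1 differed by -0.02 and 0.41 and HSPD1 by 0.06 and -0.03. The median over the members was 0.40 in replicate 1 and 0.69 in replicate 2. Without stiff IPN replicate 2 the median difference was 0.30, HSPB1 was at 0.15, HSPH1 at 0.74, HSPA1A at 0.45, HSPA1B at 0.37 and HSPE1 at 0.42, and no member passed without the block. With the block and without that library, HSPH1 (adjusted p = 0.0275) and HSP90AA1 (0.0385) were called in limma. Without stiff IPN replicate 1, where replicate 2 alone stood for that gel, 5 members were called with the block, namely HSPA1A, HSPA1B, HSPB1, HSPH1 and HSPE1.

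**Figure D2:**
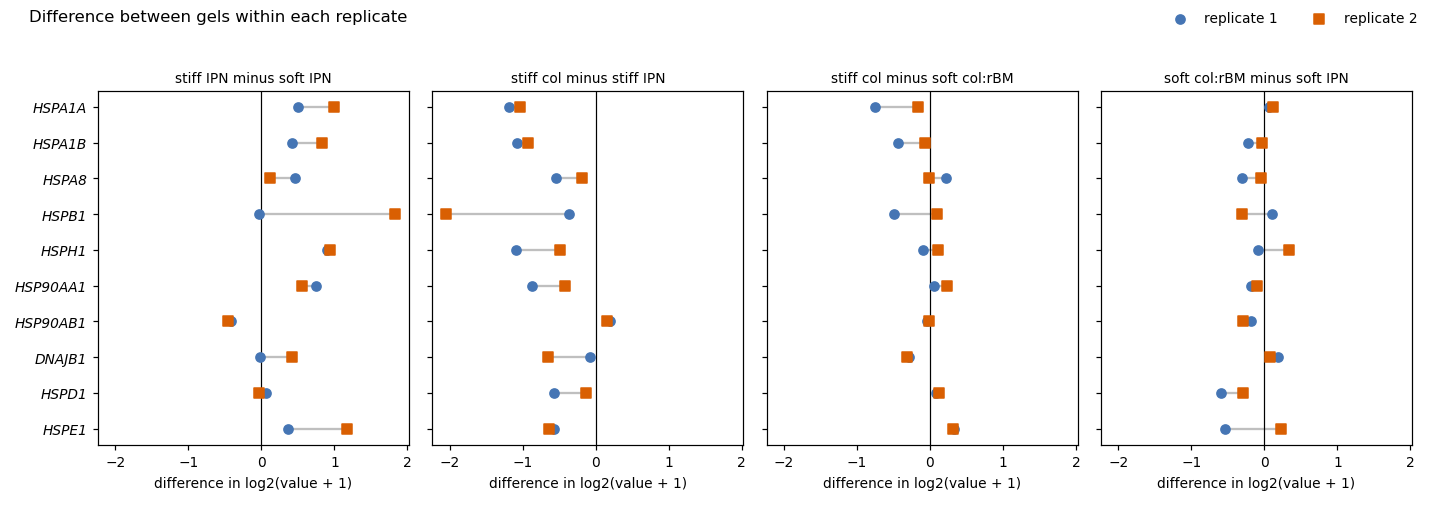
Difference in log2(value + 1) between gels for each member, computed within replicate 1 (circles) and within replicate 2 (squares), with a grey line joining them. In stiff IPN minus soft IPN, 7 genes lie above 0 in replicate 1 and 8 in replicate 2, and the pair of HSPB1 points (-0.03 and 1.83) is the farthest apart. In stiff col minus stiff IPN, HSP90AB1 is the 1 gene above 0 in either replicate.

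To examine collagen-1 at high stiffness, stiff col gels were compared with stiff IPNs, which share the stiff IPN libraries with the comparison above. HSPA1A and HSPA1B were lower in stiff col, at 0.462 and 0.499 of their stiff IPN levels, which is a log2 difference of -1.12 ± 0.30 and -1.003 ± 0.29 (SE, n = 2 per gel). Of the 10 members, 9 were lower, with a median of -0.62 beside 0.00 over all genes tested. For 8 members both stiff col libraries were below both stiff IPN libraries, as for 15.8% of all genes, and for 0 members were both above, as for 15.1% of genes. The members without such a gap were HSP90AB1, which was 1.13-fold higher on average, and HSPE1.

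With the replicate block, HSPA1A and HSPA1B fell in stiff col (limma, adjusted p = 0.0297 and 0.0318), 2 of 10 members where 1.47% of all genes were called lower. When the values of both genes were added to count each library once, the sums were 1466 and 2168 in the stiff IPNs and 665 and 1089 in the stiff col gels, and the difference was -1.07 ± 0.18 (log2, SE) with an adjusted p of 0.0259 in limma with the block. Within replicates HSPA1A differed by -1.19 and -1.04 and HSPA1B by -1.08 and -0.93. HSPH1 (-1.08 and -0.49), HSP90AA1 (-0.87 and -0.42) and HSPE1 (-0.58 and -0.64) were also lower in both replicates without passing the test (adjusted p = 0.0695, 0.0840 and 0.184 in limma with the block). HSPB1 differed by -0.36 in replicate 1 and by -2.04 in replicate 2. Without stiff IPN replicate 2 both HSPA1A and HSPA1B were still called with the block (limma, adjusted p = 0.0414 and 0.0403), and HSPH1 (0.0362) and HSP90AA1 (0.0440) were called with them. Without stiff IPN replicate 1 the calls beside HSPA1A and HSPA1B were HSPB1 and DNAJB1. HSPA1A and HSPA1B were not called when a stiff col or soft IPN library was left out, with limma's adjusted p of 0.278 and 0.320 without stiff col replicate 1, 0.0551 and 0.0781 without stiff col replicate 2, and 0.0649 to 0.0696 without either soft IPN library. They were also not called without a trend or robustness in the variance (0.0940 and 0.0905). Without the block, the 10 members had adjusted p values of 0.506 to 0.927 in limma, 3 of them with an unadjusted p under 0.05, as had 838 genes in all.

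Stiffness in the collagen gels was examined by comparing stiff col with soft col:rBM gels, which the labels also set apart by rBM. Here 5 members were higher and 5 lower, with a median log2 fold change of -0.01 beside 0.00 over all genes. DNAJB1 was at 0.813 of its soft col:rBM level and was the 1 member whose libraries did not overlap, lower in stiff col as were 9.5% of all genes, and for 0 members were both stiff libraries higher (9.51% of genes). HSPA1A was lower in both replicates (-0.75 and -0.17), as was HSPA1B (-0.43 and -0.07), and HSPE1 was higher in both (0.33 and 0.31). HSPH1 differed by 0.01 on average with a 95% interval of -0.87 to 0.88 (log2). No member passed in limma with or without the block, and 0 of 13369 genes did (0%), with 140 genes at an unadjusted p under 0.05 without the block and 497 with it.

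Soft col:rBM was compared with soft IPN to set the 2 soft gels beside each other. Members lay close together, with 3 higher and 7 lower and a median of -0.13 beside 0.00 over all genes. HSPD1 was at 0.736 and HSP90AB1 at 0.849 of its soft IPN level, each with no overlap, as were 10.4% of all genes in that direction and 10.3% in the other, where there was no member. HSPD1 was lower in both replicates (-0.60 and -0.29) with a 95% interval of -0.93 to 0.05 (log2). No member passed in limma with or without the block, and 3 genes in all did with it (0.0224%).

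Averaged over both gel systems, stiff gels had 8 members higher and 2 lower, with a median of 0.19. HSPE1 had the largest average difference, 0.55 (log2, 95% interval -0.03 to 1.12), followed by HSPH1 at 0.46 and HSP90AA1 at 0.40. None passed in limma with the block, where 0.598% of all genes were called. Without stiff IPN replicate 1, HSPB1 was at 0.73 and HSPE1 at 0.72 (log2, without the block). Without stiff IPN replicate 2 they were at -0.03 and 0.37. The stiffness difference in the collagen gels minus that in the IPNs was -1.21 for HSPA1A and -0.88 for HSPA1B, which were higher with stiffness in both replicates of the IPNs and lower in both replicates of the collagen gels. It did not pass in limma with the block either (adjusted p = 0.229 and 0.344, with 0.015% of all genes called), so the 2 gel systems were not shown to differ for these genes. Without stiff IPN replicate 1, HSPA1A was at -1.34 with the block. HSPB1 was at -1.86 without that library and at -0.35 without stiff IPN replicate 2 (both without the block). The median over members was -0.37 in replicate 1 and -0.78 in replicate 2. Across the 4 gels together 1.58% of genes and 0 members were called in limma with the block. The lowest adjusted p values of members there were 0.0780 for HSPA1B and 0.0788 for HSPA1A.

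The members differed between replicates as well as between gels. With the gel in the model, HSP90AA1 was 1.53-fold higher in replicate 2 than in replicate 1 (limma, adjusted p = 0.00872), HSPH1 1.51-fold (0.0145), HSPA8 1.37-fold (0.0303), HSPE1 1.398-fold (0.0475) and HSPA1B 1.31-fold (0.0489). These 5 of 10 members rose where 12.7% of all genes were called higher. HSP90AA1, HSPH1 and HSPA8 were higher in replicate 2 in 4 of 4 gels, as were HSPA1A and HSPA1B, and HSPE1 was higher in 3 of 4. HSPA1A was 1.33-fold higher with an adjusted p of 0.0572, and HSPB1, HSP90AB1, DNAJB1 and HSPD1 did not pass, with adjusted p values of 0.168 to 0.903. The calls depended on which libraries were used, as the number of members called fell to 0 without either soft col:rBM library or either stiff col library and to 3 without either soft IPN library. Without either stiff IPN library it was 6, and HSPB1 and DNAJB1 were then lower in replicate 2 (-0.42 and -0.25, limma adjusted p = 0.0228 and 0.0454 without stiff IPN replicate 2).

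**Figure D3:**
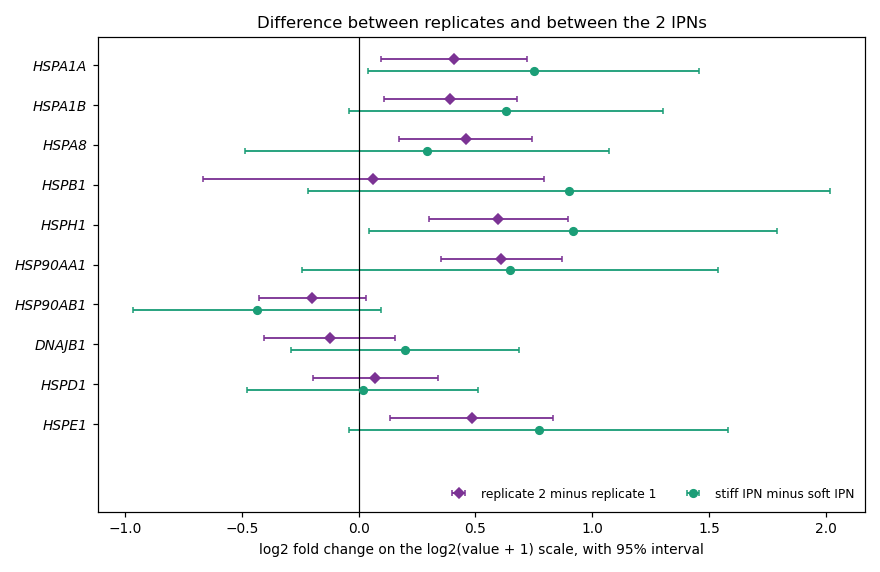
Log2 fold change of each member between replicate 2 and replicate 1 with gel in the model (diamonds) and between stiff and soft IPNs without a block (circles), with 95% intervals from limma. For HSPA8 the replicate difference (0.46) is larger than the stiffness difference (0.29), and for HSPH1 the stiffness difference (0.92) is larger than the replicate difference (0.60).

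Other cell features also differed between the replicates. Averaged over the gels, all 12 of 12 proliferation genes were higher in replicate 2 and 6 were called, where 12.7% of all genes were called higher. PCNA, TYMS and RRM2 were at 1.16, 1.15 and 1.11 (log2, limma adjusted p = 0.00645, 0.00900 and 0.0158). Within the stiff IPNs, however, only MCM5, PCNA, TYMS and RRM2 were higher in replicate 2. The other proliferation genes were lower there, such as MKI67 (1827 and 1416) and TOP2A (2454 and 1461). Of 12 immediate early and handling stress genes 5 were called lower and 2 higher, where 14.4% of all genes were called lower and 12.7% higher. EGR1 was at -2.07, BTG2 at 1.02 and FOS at -0.95 (log2, limma adjusted p = 0.000687, 0.00289 and 0.00483), and JUN was the other gene called higher. Their part in the members' differences was not tested. Between the IPNs, with the block, 3 of the 12 immediate early genes were called lower in stiff IPNs, with FOS at -1.36, EGR1 at -0.93 and DUSP1 at -0.76 (limma, adjusted p = 0.0254, 0.0468 and 0.0489), where 2.13% of all genes were called lower. With the block, their differences were -1.05, -0.98 and -0.86 without stiff IPN replicate 2. Without soft IPN replicate 2 they were -1.10, -0.80 and -0.63, and none of these genes was called. EGR1 and DUSP1 were also not called without soft IPN replicate 1 or without either stiff col library. The DUSP1 call was lost without either soft col:rBM library too. JUNB was called higher in stiff col than in stiff IPN, by 0.75 (limma with the block, adjusted p = 0.0415, where 1% of all genes were called higher). Its adjusted p was 0.0163 without stiff IPN replicate 2, and it was not called when any library other than those of the stiff IPNs was left out (0.0661 to 0.395). FOS and JUNB encode AP-1 subunits, and DUSP1 a phosphatase that switches off MAP kinases. The summed epithelial markers were highest, and the summed immune markers lowest, in the second stiff IPN library, and their part was likewise not tested. KRT17 made up 71907 of the 173740 there, while LAMB3 (25292) was at its lowest of the 8 libraries and KRT5 (38963) was below its soft IPN replicate 2 value (44022).

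The rest of the chaperone system was described from fixed lists. Of 4 HSF regulators none passed between any gels. HSF1, the main heat shock factor, had 2078 and 1733 normalized counts in the soft IPNs, 1584 and 1517 in the stiff IPNs, 2048 and 1518 in the soft col:rBM gels and 2016 and 1303 in the stiff col gels. HSF1 was thus lower in both stiff IPN libraries than in both soft IPN libraries, with a log2 difference of -0.29 that did not pass (limma with the block, adjusted p = 0.303). HSF2, a second family member, lay between 194 and 317. HSPA6, an HSP70 gene that is nearly silent without stress in many cells, had 8 to 26 normalized counts, and its near-identical pseudogene HSPA7 was listed at 0.

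Of 18 other HSP70, HSP110 and small HSP genes, 11 passed the filter. None was called between the IPNs, and with the block HSPA13, an HSP70-like protein of the secretory pathway, was called higher in stiff col than in stiff IPN by 1.09 (limma, adjusted p = 0.0337). HSPA13 had 624 and 620 normalized counts in the soft IPNs, 546 and 333 in the stiff IPNs, 649 and 640 in the soft col:rBM gels and 958 and 862 in the stiff col gels. Its difference was 0.76 without stiff IPN replicate 2 (limma with the block, adjusted p = 0.0290), and it was not called without either stiff col or either soft IPN library (0.0857 to 0.216). HSPA4L, an HSP110 protein, had 408 and 711, 899 and 980, 261 and 832, and 297 and 871 normalized counts in the order of gels above. It rose in replicate 2 by 1.035 on the log2 scale (limma, adjusted p = 0.0180), as did HSPA14 by 0.55, while HSPA1L fell by 1.14 (adjusted p = 0.00888 and 0.0350). HSPA4L did not pass between the IPNs (0.80, adjusted p = 0.193 with the block). HSPB8, a small heat shock protein that works with BAG3, was named after its values were seen. It had 308 in stiff IPN replicate 2 and 42 to 64 in the 7 other libraries, so that library was apart for HSPB8 as for HSPB1.

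Among 16 co-chaperones of HSP70 and HSP90, CHORDC1 was the 1 gene called between the IPNs with the block. CHORDC1, which binds HSP90, had 162 and 207 normalized counts in the soft IPNs, 356 and 508 in the stiff IPNs, 156 and 364 in the soft col:rBM gels and 192 and 415 in the stiff col gels. It was higher in stiff IPNs by 1.21 (log2, limma adjusted p = 0.0412), and without stiff IPN replicate 2 by 1.401 (0.0325). It was not called without soft IPN replicate 1 (0.0711), soft IPN replicate 2 (0.465) or stiff col replicate 2 (0.0508). The co-chaperones had a median difference of 0.05 between the IPNs, with 11 higher and 5 lower. BAG3, a nucleotide exchange factor tied to protein clearance, had 1160 and 1225, 1232 and 1671, 1144 and 1242, and 1013 and 1132, and it did not pass (0.27 between the IPNs, adjusted p = 0.287 with the block). In replicate 2, 6 of 16 co-chaperones were called higher and 1 lower, where 12.7% and 14.4% of all genes were.

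Of 8 cytosolic J-domain genes, 7 were tested. DNAJB5 went against the members, with 571 and 383 normalized counts in the soft IPNs, 284 and 146 in the stiff IPNs, 731 and 316 in the soft col:rBM gels and 661 and 357 in the stiff col gels. It fell in stiff IPNs against soft IPNs (-1.20, limma adjusted p = 0.0273 with the block) and was higher in stiff col than in stiff IPN (1.25, limma adjusted p = 0.02004 with the block). Both calls held without stiff IPN replicate 2 (limma adjusted p = 0.0263 and 0.0221), whereas the first was lost without soft IPN replicate 2 (0.351) and the second without stiff col replicate 1 (0.157) or 2 (0.102). DNAJA1, an HSP40 that works with HSPA8, had 1823 and 2499, 2659 and 3740, 1661 and 2705, and 1691 and 3052, and was higher in stiff IPNs by 0.56 without passing (limma with the block, adjusted p = 0.0742).

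The lists of TRiC and prefoldin subunits, mitochondrial chaperones and ER chaperones held no gene called between gels. Of 14 TRiC and prefoldin subunits, 11 were higher in stiff IPNs than in soft IPNs with a median of 0.13, and none passed. HSPA9, the mitochondrial HSP70, had 8767 and 12429, 10227 and 10603, 7614 and 12956, and 7582 and 12279 normalized counts and had a log2 difference of -0.0035 between the IPNs. The list of 10 mitochondrial chaperones and proteases it belongs to had a median of -0.15. Of 10 ER chaperones, none was called between gels, and all 10 had a higher mean in stiff col gels than in the soft collagen gels, with a median of 0.30. HSPA5 (BiP), the HSP70 of the ER, had 18138 and 11729, 13145 and 13345, 22607 and 10819, and 29535 and 11705, and it fell by 0.75 in replicate 2 (log2, limma adjusted p = 0.0306). HSP90B1 (GRP94), the HSP90 of the ER, fell by 0.87 in replicate 2 (log2, limma adjusted p = 0.00688), a direction opposite to that of HSP90AA1.

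**Figure D4:**
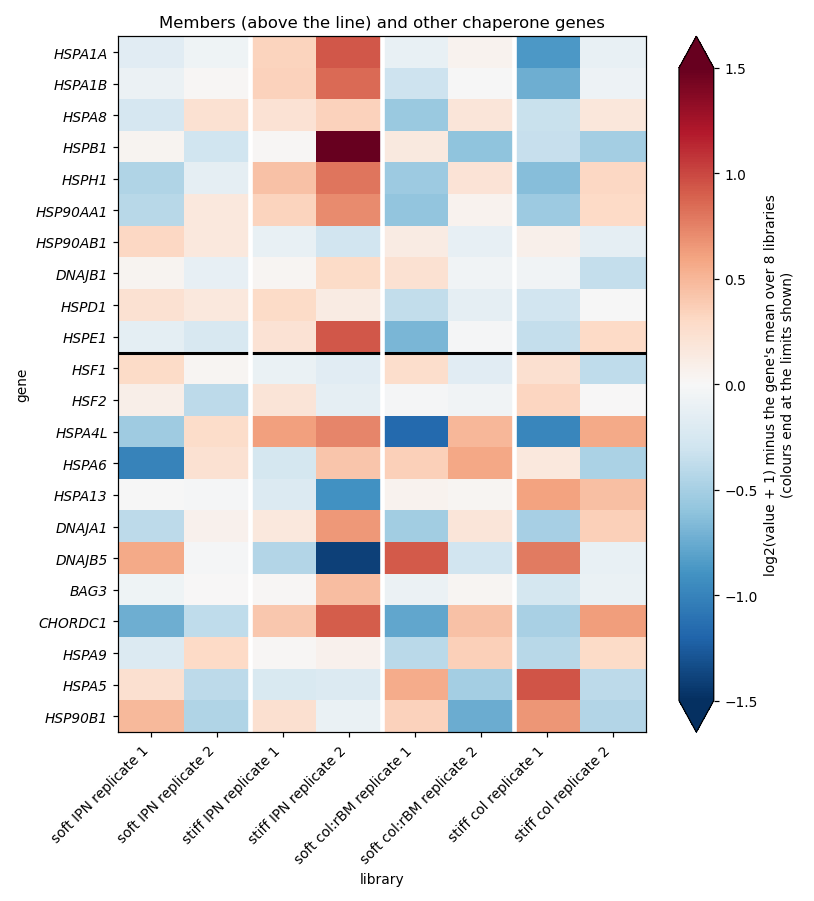
Colour shows log2(value + 1) minus the mean of the gene over the 8 libraries, for the 10 members above the black line and 12 other chaperone genes and regulators below it, with libraries ordered by gel. Stiff IPN replicate 2 is the highest library for 8 members, while HSP90AB1, DNAJB5 and HSPA13 are lowest there.

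The members did not all move together. Over the 8 libraries, the Pearson correlation of each member with the mean of the other 9 was 0.985 for HSPA1B, 0.923 for HSPA1A and 0.618 to 0.824 for HSPE1, HSP90AA1, HSPH1, HSPA8, HSPB1 and HSPD1. It was 0.206 for DNAJB1 and -0.679 for HSP90AB1. These correlations are across libraries that share gels and replicates and include the library that stands apart, so they are descriptions. Among 9057 non-member genes with at least 100 normalized counts in every library, the 5 most like the mean of the members were ETV6 (r = 0.991), ARHGEF3 (0.984), FAM136A (0.979), MRPS17 (0.979) and SLC25A4 (0.978), over 8 libraries. ETV6 had 240 and 256 normalized counts in the soft IPNs, 283 and 373 in the stiff IPNs, 200 and 232 in the soft col:rBM gels and 194 and 245 in the stiff col gels, so its highest library was also stiff IPN replicate 2.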

How the data were processed

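Per the labels and the study's methods, RNA was extracted with TRIZOL and sequenced from TruSeq libraries. Per those methods, the authors trimmed adapters, mapped to hg19, discarded reads of low quality or with several matches, and used HTSeq for counts per gene. The submitters' processing notes name Trim Galore 0.3.3, TopHat2 2.0.13, SAMtools 1.1, HTSeq, DESeq2 and R 3.2.0, whereas the methods name Bowtie2 as the aligner. The annotation and strand setting used for counting are not given in the sources used here. What the authors deposited is a normalized signal and not raw counts: each count had been multiplied by 1 factor per library and rounded, and these values are called normalized counts. Among the symbols, 28 had become dates.

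Genes with at least 10 in at least 2 libraries (13369) were fitted as log2(value + 1) with limma 3.58.1 in R 4.3.3, with 1 mean per gel, a variance trend and robust moderation. P values were adjusted by Benjamini-Hochberg across the whole table at a threshold of 0.05, and fold changes are on the log2(value + 1) scale. The fit was tested on simulated data. Replicate numbers come from the sample titles. Subtracting replicate 1 from replicate 2 in each gel gave differences that correlated over genes in each of 6 gel pairs (r of 0.278 to 0.819). The pairs with the stiff IPN were the lowest (r of 0.278, 0.393 and 0.398). The numbers were taken to pair the libraries, less closely for the stiff IPN. A fit with the replicate as a block had been planned as the alternative and is given beside the fit without it.

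Detection limits cover counting error only, since the reads carry no molecular identifiers, and 95% intervals are those of limma. The 10 members were named in every comparison. Other named genes were 8 chaperone genes and regulators (HSF1, HSF2, BAG3, HSPA6, DNAJA1, HSPA9, HSPA5 and HSP90B1), up to 3 called genes per list and the 5 genes most like the members. The members, lists and rules were chosen with earlier results of these data known. Python 3.11.15, numpy 2.4.6, pandas 2.3.3 and matplotlib 3.10.9 were used for the rest. Alternatives covered scaling, pseudocount, filter, moderation, the gels in the fit, the block and each library left out, and 2 were chosen after seeing the data, namely the block with HSPA1A and HSPA1B added together and each library left out for called genes that are not members.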

Additional observations from a re-analysis of the deposited data

Results flagged for a closer look

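HSPA1A and HSPA1B were flagged because every stiff IPN library was above the soft IPN library of the same replicate while every stiff col library was below its soft col:rBM library. The stiffness difference in the collagen gels minus that in the IPNs was -1.21 (log2) for HSPA1A and -0.88 for HSPA1B. It did not pass in limma, with an adjusted p of 1 for both genes without the block and of 0.229 and 0.344 with it. Leaving out 1 library moved the HSPA1A value between -1.58 and -0.83 and the HSPA1B value between -1.21 and -0.55 without the block. With the block, HSPA1A passed without stiff IPN replicate 1 (limma, adjusted p = 0.0333). No group had more than 2 libraries, so a library far from the others of its own gel could not be told. Both genes were highest in stiff IPN replicate 2 (1238 and 930 normalized counts), the library that stood apart from the others. The share of all genes called with a library left out was not computed.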

How the results depend on the processing

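The number of members called depended on the replicate block, the scaling and single libraries. Between stiff and soft IPNs, 0 members were called without the block. With it, 1 was called, also after median-of-ratios rescaling, with a pseudocount of 5 and with at least 10 in every library, and 5 after rescaling to the same total. Between stiff col and stiff IPN, 0 were called without the block, 2 with it and under the same 3 settings, and 3 after rescaling to the same total, which also gave 1 across the 4 gels. For replicate 2 against replicate 1, 2 were called without trend and robust moderation. The block changed no other count of members called. Rescaling to the same total moved the median of all genes by 0.26 between the IPNs and by -0.11 between the stiff gels, and the members' median between the IPNs was then 0.91 with or without the block. That rescaling turned the sign of HSP90AB1 in stiff col against soft col:rBM (0.0246), HSPB1 in soft col:rBM against soft IPN (0.0049), DNAJB1 in stiffness averaged (0.11) and in replicate 2 against 1 (0.0063), and HSPD1 in the collagen minus IPN difference (-0.13), with the same values under the block where it was run. Adding HSPA1A and HSPA1B together turned HSPA1A in soft col:rBM against soft IPN (-0.0007, with the block too). None of these passed the test.

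Leaving out each library in turn, with and without the block, gave the following ranges. Members called ranged from 0 to 5 between the IPNs, from 0 to 4 between stiff col and stiff IPN, from 0 to 2 for stiffness averaged, from 0 to 3 for the collagen minus IPN difference and across the 4 gels, and from 0 to 6 between replicates. In the gel comparisons the highest counts came without stiff IPN replicate 1, and between the stiff gels also without stiff IPN replicate 2. The members' median ranged from 0.30 to 0.86 between the IPNs, from -0.99 to -0.30 between the stiff gels, from -0.26 to 0.12 between the soft gels and from -0.85 to -0.28 for the collagen minus IPN difference. The signs of these single genes also depended on the library left out. Between the IPNs, HSPB1 ranged from -0.0644 to 1.87, DNAJB1 from -0.0574 to 0.46 and HSPD1 from -0.14 to 0.17. Between stiff col and soft col:rBM, HSPA1B ranged from -0.58 to 0.0817, HSPA8 from -0.26 to 0.47, HSPB1 from -0.74 to 0.34, HSPH1 from -0.47 to 0.48, HSP90AA1 from -0.27 to 0.56, HSP90AB1 from -0.15 to 0.10, HSPD1 from -0.0366 to 0.24 and HSPE1 from -0.0151 to 0.66. Between the soft gels, HSPA1A ranged from -0.10 to 0.29, HSPA1B from -0.32 to 0.0722, HSPA8 from -0.54 to 0.19, HSPB1 from -0.645 to 0.44, HSPH1 from -0.25 to 0.50, HSP90AA1 from -0.47 to 0.19, DNAJB1 from -0.0055 to 0.27 and HSPE1 from -0.54 to 0.23. For stiffness averaged, HSPA1A ranged from -0.0413 to 0.33, HSPB1 from -0.13 to 0.83, DNAJB1 from -0.18 to 0.0779 and HSPD1 from -0.0182 to 0.14. For the collagen minus IPN difference, HSPA8 ranged from -0.55 to 0.18 and HSPD1 from -0.07 to 0.24. For replicate 2 against 1, HSPB1 ranged from -0.42 to 0.33. The cause of these shifts was not tested. A lone library in a gel was assumed to vary like the other gels, and the share of all genes called in these fits was not computed. Of values recomputed for single genes under an alternative, 1856 kept their direction and side of the threshold, 55 passed it, 30 no longer did and 83 turned in sign. With 2 libraries per gel, a member's 95% interval without the block often spanned both directions.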
